A study of Mus musculus with 15 samples.

Results

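Fibroblast and extracellular matrix genes were examined in Tsc2-deficient 105K tumors of the mouse as a list of 41 genes. Members were the genes of a written list whose symbols were in the expression table, and all 41 were found among 24891 genes. The list held 13 collagen chains, 13 matrix glycoproteins and proteoglycans, 4 processing and cross-linking enzymes, 4 fibroblast surface proteins and 7 matrix metalloproteinases or their inhibitors. RNA sequencing covered 15 libraries, with 3 in each of 5 groups, all from subcutaneous tumors in wild-type C57BL/6J mice. Bulk tumors carried either a non-targeting control, sh-NC, or the shRNA called sh-B7-H3 (1). Tumor cells were sorted from tumors with these 2 and from tumors with a further shRNA, sh-B7-H3 (2). The numbers in parentheses mark separate shRNAs against B7-H3, an immune checkpoint protein encoded by Cd276. Every group shared the loss of Tsc2, a brake on mTORC1, since 105K is a renal tumor line lacking it. The cells were heterogeneous puromycin-selected pools injected with matrigel, itself a basement membrane extract, into flanks of male mice of 1 age. Sorted cells were those left after a kit had magnetically removed non-tumor cells, and there were no bulk tumors with sh-B7-H3 (2). The labels did not tie libraries to animals, so p-values measure the spread between these libraries.

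Fibroblasts secrete most of the fibrillar collagens of a tumor stroma. Procollagen chains are trimmed outside the cell, assemble into fibrils with types V and XII and small proteoglycans, and are cross-linked by lysyl oxidases. Type IV collagen forms basement membranes, which epithelial, endothelial and tumor cells also make, and metalloproteinases and their inhibitors govern the turnover of both. Carcinoma cells that have taken on mesenchymal traits can make fibronectin, SPARC and collagens themselves, so these genes do not mark fibroblasts alone.

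The levels below are scaled FPKM, fragments scaled by gene length and library size and then by a median-ratio factor for each library. Fold changes are differences of mean log2(scaled FPKM + 1) from limma with their standard errors, which understates the change of low genes. Genes entered a test with 1 scaled FPKM or more in 3 of its libraries, and a call was an adjusted p below 0.05 over all genes tested. Some counts of members at an unadjusted p below 0.05 by limma are also given. No share of all genes was taken at that threshold, so those counts are no results about the members. Estimated depth was about 16000000 to 34700000 reads a library. MIR6236 held over 70% of the summed FPKM in bulk sh-NC replicate 3 and in bulk sh-B7-H3 (1) replicate 2. Cd276 lay at 20.8 to 23.6 in bulk sh-NC and 17.9 to 24.5 in bulk tumors labelled sh-B7-H3 (1), so the groups overlapped. In sorted cells it lay at 17.3 to 34.1 with sh-NC, 7.32 to 14.0 with sh-B7-H3 (1) and 23.4 to 25.8 in the libraries labelled sh-B7-H3 (2). Sorted cells with sh-B7-H3 (1) were thus the group whose libraries all lay below their controls, and the groups are named by their labels throughout.

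Markers of other cells set 1 sorted library apart. The summed level of 10 endothelial markers was 32.7 to 58.8 in bulk tumors and 0.35 to 0.96 in 8 sorted libraries, but 27.9 in sorted sh-B7-H3 (2) replicate 1. The summed level of 10 leukocyte markers was 232 to 443 in bulk, 2.73 to 10.6 in those 8 libraries and 218 in that replicate. Results with sh-B7-H3 (2) are therefore given with and without it. Sorted cells held all 10 markers of epithelial tumor cells, with sums of 1116 to 1250 in sh-NC, 1980 to 2279 in sh-B7-H3 (1) and 2045 to 2255 in sh-B7-H3 (2). The 24 fibroblast markers outside the list summed to 338 to 559 there, against 234 to 487 in bulk tumors. Of those 24, TCF21 was listed at 0 in every library. In sorted cells 9 of the 24 were under 1 in every sh-NC library, 7 in every sh-B7-H3 (1) library and 5 in every sh-B7-H3 (2) library. In bulk tumors 8 were under 1 in every sh-NC library and 3 in every sh-B7-H3 (1) library. The summed level of 9 macrophage markers was 910 to 1605 in bulk tumors, 64.3 to 69.5 in sorted sh-NC, 146 to 168 in sorted sh-B7-H3 (1), and 875, 133 and 132 in sorted sh-B7-H3 (2). Of 7 such markers tested 3, CD14, CD68 and CSF1R, were higher than in sorted sh-NC with either shRNA. C1QA, C1QB, C1QC and LYZ2 did not pass with either, and LYZ2 differed by -0.19 ± 0.29 (log2) with sh-B7-H3 (1). None of the 9 was listed at 0 in every library. The summed level of 12 skeletal muscle genes was 41.8 to 127 in sorted libraries. Sorted cells thus held RNA of some, but not all, of the genes commonly read as mesenchymal. Their summed level of macrophage markers was higher with either shRNA than with sh-NC, though most of those tested did not pass singly. The part of these markers in the results below was not tested.

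**Figure D1:**
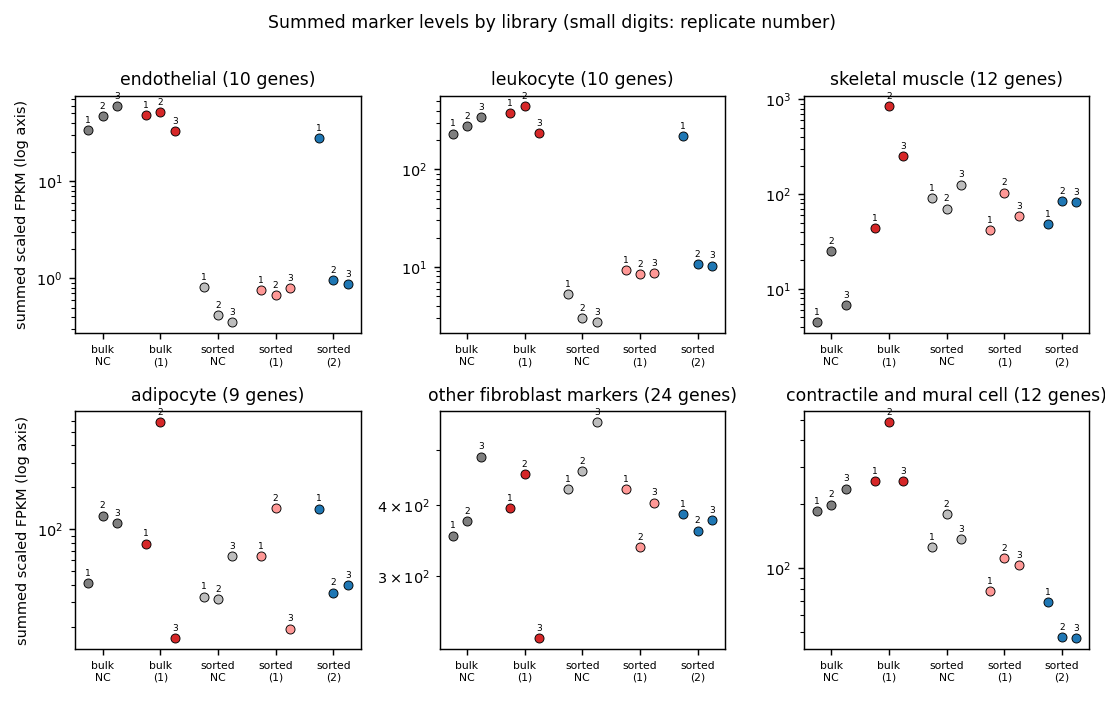
Summed scaled FPKM of 6 marker lists (vertical log axes) in each of 15 libraries, grouped along the horizontal axis, with replicate numbers beside the points. Endothelial and leukocyte sums were low in all sorted libraries but sh-B7-H3 (2) replicate 1, and skeletal muscle was highest in bulk sh-B7-H3 (1) replicate 2, at 845.

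In bulk tumors, 22 of the 38 members tested were higher with sh-B7-H3 (1) than with sh-NC, against 12.8% of all 11804 genes tested. FN1 was the 1 member lower, against 8.51% of all genes. The median log2 fold change of the 38 members was 1.07, and that of all genes 0.02. Of the 38 fold changes 33 were above 0. The list was chosen with earlier results of these data known, so an excess over all genes is no independent result. By role, 9 of 12 collagens, 8 of 13 glycoproteins and proteoglycans, 3 of 4 enzymes, 1 of 2 surface proteins and 1 of 7 metalloproteinases and inhibitors rose. In bulk samples, fewer cells of a type and less RNA per cell cannot be told apart, and neither can more cells and more RNA per cell.

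**Figure D2:**
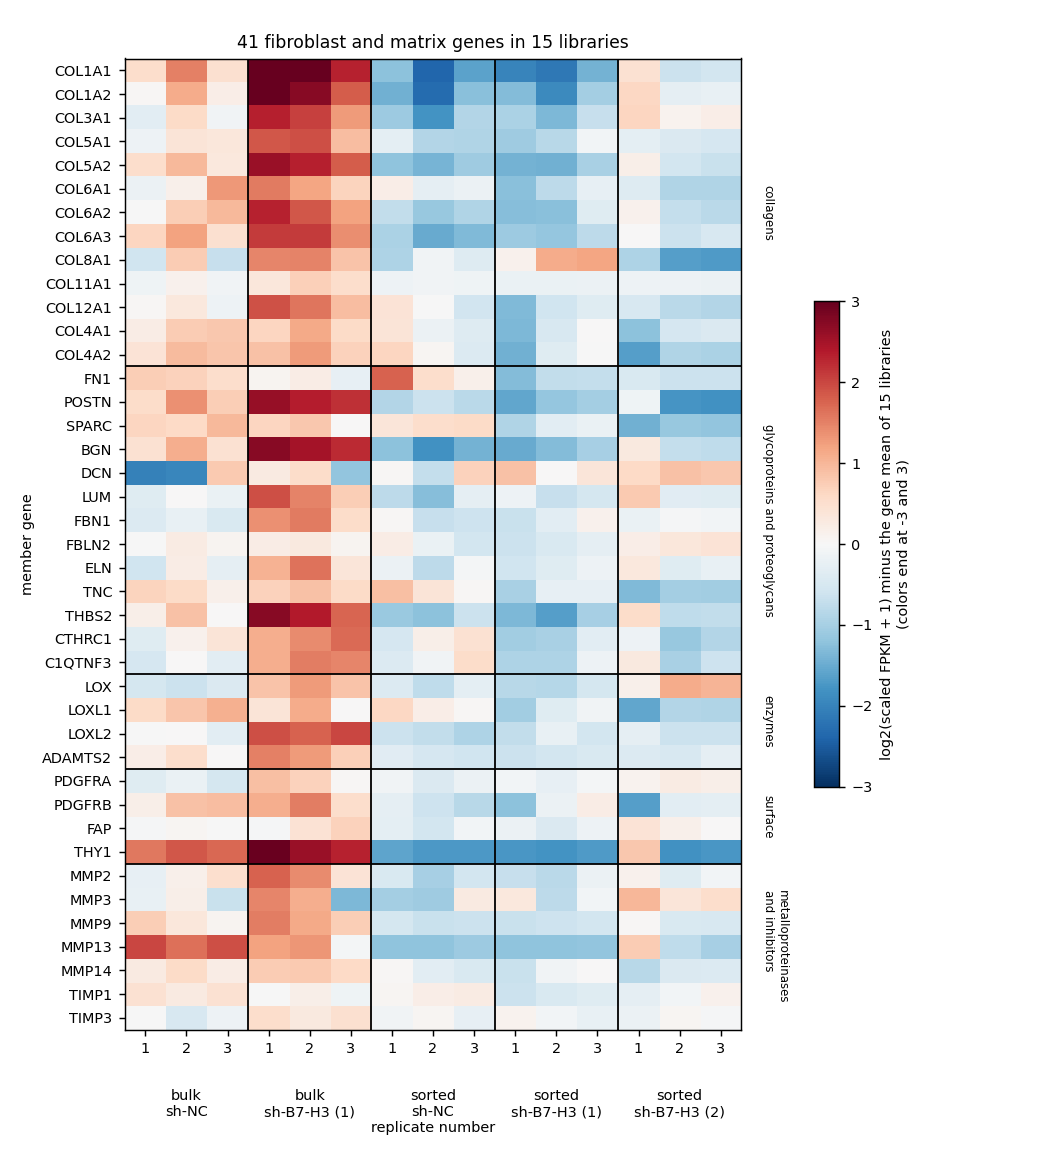
Color gives log2(scaled FPKM + 1) of each of 41 members (rows, by role) in each of 15 libraries (columns, by group) minus the mean of that gene over all libraries. The 3 bulk sh-B7-H3 (1) libraries were above the mean for most collagens and for POSTN, BGN and THBS2, whereas DCN, FN1 and SPARC did not follow this pattern.

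The chains of type I collagen had the highest fold changes of all members, followed by LOXL2 and THBS2. COL1A1, a chain of type I collagen, was at 32.1, 64.4 and 31.1 scaled FPKM in the bulk sh-NC libraries and at 272, 199 and 114 in bulk sh-B7-H3 (1), which is 2.16 ± 0.38 higher on the log2 scale (SE, adjusted p = 0.0121). COL1A2, the other chain of that collagen, was at 20.7, 44.4 and 23.2 against 186, 139 and 73.3 scaled FPKM (2.12 ± 0.40, adjusted p = 0.0144). COL3A1, which forms thin fibrils with type I, was at 19.5, 36.8 and 22.5 against 126, 105 and 60.0 scaled FPKM (1.83 ± 0.32, adjusted p = 0.012). In all these chains the lowest sh-B7-H3 (1) library was above the highest control, and replicate 3 was the lowest and replicate 1 the highest of the sh-B7-H3 (1) libraries. COL5A1 and COL5A2, chains of the type V collagen on which fibrils start, rose by 1.38 ± 0.29 and 1.64 ± 0.24 on the log2 scale. COL5A2 went from 5.39 to 9.13 scaled FPKM in controls to 17.2 to 29.6. COL12A1, which sits on the fibril surface, rose by 1.41 ± 0.26 on that scale.

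Sequence upstream of the starts of 3 members that rose together in bulk tumors, and of SPARC, which did not pass the test there, is shown for comparison. Each is the 250 bases before the start of the RefSeq gene, read 5′ to 3′ along the gene's strand in GRCm38.p6, the build also called mm10. Capitals mark, on either strand, TATAAA (the TATA box), CCAAT (the CCAAT box), GGGCGG (the GC box), CAGACA (a SMAD-binding element) and TGANTCA (the AP-1 site), none of which holds another. The Col1a2 window lay at chr6:4505368-4505617 (plus strand), Col3a1 at chr1:45311288-45311537 (plus strand), Thbs2 at chr17:14694263-14694512 (minus strand) and Sparc at chr11:55420081-55420330 (minus strand).
Col1a2: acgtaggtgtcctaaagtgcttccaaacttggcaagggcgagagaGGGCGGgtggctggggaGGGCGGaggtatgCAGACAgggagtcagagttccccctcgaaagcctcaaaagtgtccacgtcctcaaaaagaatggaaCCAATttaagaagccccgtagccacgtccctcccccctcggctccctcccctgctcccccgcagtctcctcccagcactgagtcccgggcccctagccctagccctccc
Col3a1: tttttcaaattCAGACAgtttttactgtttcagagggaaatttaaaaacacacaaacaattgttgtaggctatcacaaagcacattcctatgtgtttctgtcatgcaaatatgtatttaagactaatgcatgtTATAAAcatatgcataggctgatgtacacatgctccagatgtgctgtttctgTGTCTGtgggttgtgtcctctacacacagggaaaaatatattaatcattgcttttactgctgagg
Thbs2: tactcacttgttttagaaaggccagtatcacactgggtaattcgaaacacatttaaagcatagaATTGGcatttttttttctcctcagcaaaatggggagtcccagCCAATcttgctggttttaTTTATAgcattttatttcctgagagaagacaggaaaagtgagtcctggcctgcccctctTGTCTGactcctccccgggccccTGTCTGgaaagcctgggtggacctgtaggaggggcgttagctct
Sparc: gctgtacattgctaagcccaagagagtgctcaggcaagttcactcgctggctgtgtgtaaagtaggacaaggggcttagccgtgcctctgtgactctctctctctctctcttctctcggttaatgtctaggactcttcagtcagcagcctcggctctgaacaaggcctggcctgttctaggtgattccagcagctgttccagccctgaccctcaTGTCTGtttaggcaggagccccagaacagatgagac

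Longer windows, which also hold 50 bases past the start, were read for 25 members. CAGACA was in 8 of these members, Sparc among them, and in 21.0% of all 32851 windows. TATAAA was in 7 members and 13.6% of windows, CCAAT in 8 and 37.4%, GGGCGG in 15 and 35.7%, and TGANTCA in 3 and 7.81%. TTCNNNGAA, the letters of a STAT site, were in 0 of the 25 members and 8.30% of windows. CAGACA stood before Col1a2, Col3a1 and Thbs2 as well as before Sparc, so every sequence shown comes from the 8 members with it. The longer windows of Postn and Bgn, members that also rose in bulk tumors, held no CAGACA. A match describes the letters of a window and nothing more.

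The other collagens were less uniform. COL6A2 and COL6A3, chains of the microfibril collagen VI, rose by 1.22 ± 0.33 and 1.09 ± 0.26 on the log2 scale (adjusted p = 0.0429 and 0.0288). COL6A1, their partner, was at 15.4, 19.4 and 44.4 scaled FPKM in controls and 53.5, 40.6 and 28.4 with sh-B7-H3 (1) (0.71 ± 0.40, adjusted p = 0.223), and the groups overlapped through control replicate 3. COL8A1, a short-chain collagen of vessel walls, was at 7.15, 19.9 and 6.62 against 33.3, 33.4 and 21.3 scaled FPKM (1.44 ± 0.40, adjusted p = 0.0432). The basement membrane chains COL4A1 and COL4A2 differed by 0.18 ± 0.21 and 0.21 ± 0.20 (log2), with overlapping groups. COL11A1, a minor fibrillar chain, was under the filter at 0.0521 to 0.26 scaled FPKM in controls and 0.449 to 0.901 with sh-B7-H3 (1).

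Of the 13 glycoproteins and proteoglycans 8 rose, FN1 fell and 4 did not pass the test. POSTN, periostin, a matricellular protein of activated fibroblasts, was at 40.3, 71.9 and 46.1 against 172, 144 and 129 scaled FPKM (1.51 ± 0.22, adjusted p = 0.00673). BGN, biglycan, a small proteoglycan that binds collagen, was at 32.8, 51.7 and 32.8 against 163, 138 and 115 scaled FPKM (1.82 ± 0.21, adjusted p = 0.00365). THBS2, the matricellular thrombospondin whose loss disturbs collagen fibrils, was at 5.56, 9.70 and 4.83 against 37.7, 29.3 and 18.4 scaled FPKM (1.93 ± 0.31, adjusted p = 0.00861). These groups did not overlap. LUM, lumican, a fibril-spacing proteoglycan, rose by 1.58 ± 0.29 on the log2 scale. FBN1, the fibrillin of microfibrils, rose by 1.52 ± 0.25, and ELN, elastin, by 1.23 ± 0.35, the latter from 0.565 to 1.77 up to 2.04 to 6.38 scaled FPKM. CTHRC1, a secreted protein of activated fibroblasts, rose by 1.35 ± 0.23 and C1QTNF3, a secreted C1q-related protein, by 1.64 ± 0.17 (log2).

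The most abundant glycoproteins did not take part in the rise. FN1, fibronectin, was at 1412, 1357 and 1221 scaled FPKM in bulk sh-NC and at 893, 984 and 708 with sh-B7-H3 (1), a fall of 0.64 ± 0.16 on the log2 scale (adjusted p = 0.0344). SPARC, a collagen-binding matricellular protein, was at 528, 514 and 661 against 525, 594 and 339 scaled FPKM (-0.25 ± 0.23, adjusted p = 0.434). FBLN2, a fibulin, was at 116 to 139 against 123 to 142 scaled FPKM, and TNC, tenascin C, at 56.2 to 81.0 against 76.4 to 94.3, and neither passed the test. The groups overlapped for SPARC, FBLN2 and TNC. DCN, decorin, was at 6.38, 6.72 and 50.8 scaled FPKM in bulk sh-NC and 35.0, 42.9 and 12.2 with sh-B7-H3 (1), so the spread within each group exceeded the difference (0.94 ± 0.81, adjusted p = 0.42). FN1 and SPARC together made up 61.6% to 68.5% of the summed level of the 41 members in bulk sh-NC and 39.6% to 43.8% in bulk sh-B7-H3 (1).

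Of the enzymes, LOXL2, a lysyl oxidase that cross-links collagens, was at 4.11, 4.18 and 3.17 scaled FPKM in bulk sh-NC and 18.7, 16.6 and 19.8 with sh-B7-H3 (1) (2.01 ± 0.12, adjusted p = 0.00195). LOX, the founding member of that family, was at 2.15, 1.91 and 2.38 against 7.29, 9.93 and 7.25 scaled FPKM (1.53 ± 0.14, adjusted p = 0.00245). The libraries of each group lay close together for both genes, and LOXL2 had the smallest adjusted p of all members in this comparison. LOXL1, which acts on elastin, was at 29.4 to 42.0 against 19.7 to 43.6 scaled FPKM, with overlapping groups (-0.31 ± 0.28). ADAMTS2, the protease that trims the amino end of fibrillar procollagens, rose by 0.92 ± 0.23 on the log2 scale (adjusted p = 0.0334).

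Surface proteins and proteases showed fewer calls. THY1, a surface glycoprotein of fibroblasts that T cells also carry, was at 13.4, 16.8 and 15.1 scaled FPKM in bulk sh-NC and 37.0, 28.1 and 23.1 with sh-B7-H3 (1) (0.90 ± 0.18, adjusted p = 0.0164). PDGFRB, the PDGF receptor of fibroblasts and mural cells, was at 8.94 to 15.6 against 11.6 to 24.3, with overlapping groups. PDGFRA and FAP, markers of fibroblasts and activated fibroblasts, were under the filter, at 0.169 to 0.466 against 0.703 to 2.14 scaled FPKM for PDGFRA and 0.512 to 0.603 against 0.508 to 1.48 for FAP. TIMP3, a matrix-bound inhibitor, rose by 0.66 ± 0.14 on the log2 scale. MMP14, the membrane-anchored collagenase, was at 141 to 178 against 182 to 209 scaled FPKM (0.36 ± 0.12, adjusted p = 0.0754), and TIMP1, a secreted inhibitor of metalloproteinases, at 56.0 to 64.3 against 42.6 to 52.5 (-0.38 ± 0.11, adjusted p = 0.0502). MMP13, a secreted collagenase, was at 6.25 to 8.22 against 1.22 to 4.73 scaled FPKM (-1.04 ± 0.35, adjusted p = 0.0746). These groups did not overlap, but the differences missed the threshold. The gelatinases MMP2 and MMP9 differed by 1.06 ± 0.36 and 0.74 ± 0.24 (log2) and the stromelysin MMP3 by 0.65 ± 0.70, each with overlapping groups.

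The count in bulk tumors depended on single libraries, although no fold change of a called member turned its sign. With all libraries, 21.3% of all genes were called in either direction. The count was 9 higher without sh-NC replicate 3, where 6.69% of all genes were called, 11 without sh-B7-H3 (1) replicate 1 (4.74%) and 15 without sh-NC replicate 1 (11.7%), with FN1 no longer called. It was 17 higher and 1 lower without both libraries rich in MIR6236 (19.8%). Without sh-B7-H3 (1) replicate 2, the library richest in muscle markers, it was 19 higher and 4 lower (33.0%). POSTN, BGN, THBS2, COL5A2, CTHRC1, C1QTNF3, LOX and LOXL2 kept their calls under all 13 alternatives. COL1A1 missed the threshold only without sh-NC replicate 3 (adjusted p = 0.0559), and FN1 kept its call under 3 of the 13.

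Markers of other cells moved beside this rise. Of 10 skeletal muscle genes tested 6 were higher in bulk sh-B7-H3 (1), with sums over 12 genes of 4.48 to 25.3 in sh-NC and 44.1 to 845 with sh-B7-H3 (1). Of 9 contractile and mural cell genes 3 were higher and 1 lower, with sums of 186 to 237 against 256 to 486. The summed level of 4 Y-linked genes was 3.13 to 3.65 in bulk sh-NC, 5.14 to 6.29 in bulk sh-B7-H3 (1) and at most 0.89 in sorted libraries other than sh-B7-H3 (2) replicate 1. Of 9 endothelial markers tested CLDN5 alone passed, downward, and of 8 leukocyte markers 2 were higher, CD3E and CD3G, with sums of 232 to 344 against 235 to 443. Of 10 epithelial tumor cell markers 4 were higher, with sums of 947 to 1064 against 1238 to 1543, and of 9 macrophage markers 2 were higher, with sums of 910 to 1558 against 966 to 1605. Of 17 other fibroblast markers tested 5 were higher and 1, SCARA5, lower (-0.80 ± 0.14), with a median of 0.16 on the log2 scale. LRRC15 (1.81 ± 0.35), SERPINF1 (1.44 ± 0.18) and TWIST1 (1.14 ± 0.22) led the rises, while the sums over all 24 overlapped, at 354 to 487 against 234 to 453. The part of these cells in the rise was not tested.

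In sorted cells with the same shRNA few members passed the test. Of 33 members tested 1 was higher and 3 were lower with sh-B7-H3 (1) than with sh-NC, against 9.03% of all genes higher and 4.37% lower. The median log2 fold change of the members was -0.05, and that of all genes 0.00. COL1A1 was at 8.88, 3.44 and 6.61 scaled FPKM in sorted sh-NC and 4.81, 4.22 and 7.60 with sh-B7-H3 (1) (-0.12 ± 0.31). COL1A2 was at 6.81, 3.28 and 7.89 against 7.57, 4.60 and 9.30 (0.25 ± 0.32). COL3A1 was at 10.9, 6.31 and 12.7 against 12.1, 8.96 and 14.8 (0.26 ± 0.26). For all of these the groups overlapped and the difference was no larger than its standard error.

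COL8A1 was the 1 member higher in these sorted cells, at 5.49, 10.4 and 8.41 scaled FPKM with sh-NC and 12.4, 25.7 and 26.8 with sh-B7-H3 (1) (1.28 ± 0.32, adjusted p = 0.032). FN1 fell from 2848, 1217 and 938 to 338, 504 and 515 scaled FPKM (-1.74 ± 0.41, adjusted p = 0.0265). SPARC fell from 436, 485 and 506 to 180, 269 and 293 scaled FPKM (-0.97 ± 0.21, adjusted p = 0.0207). In each of these genes the groups did not overlap, and FN1 in sh-NC replicate 1 stood well above the other control libraries. TIMP1 fell by 0.65 ± 0.13 on the log2 scale (adjusted p = 0.0137). Of 10 epithelial markers 5 were higher in the same cells, with sums of 1980 to 2279 against 1116 to 1250, and their part in these falls was not tested. The number of calls was 0 without sh-B7-H3 (1) replicate 2, where 7.38% of all genes were called, against 13.4% with all libraries. There 1 member was higher and 6 lower by limma at an unadjusted p below 0.05. The number of calls was 1 without sh-NC replicate 2 (8.86%) or sh-B7-H3 (1) replicate 1 (6.66%), and 2 without sh-B7-H3 (1) replicate 3 (6.92%). No single call held under all 12 alternatives.

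**Figure D3:**
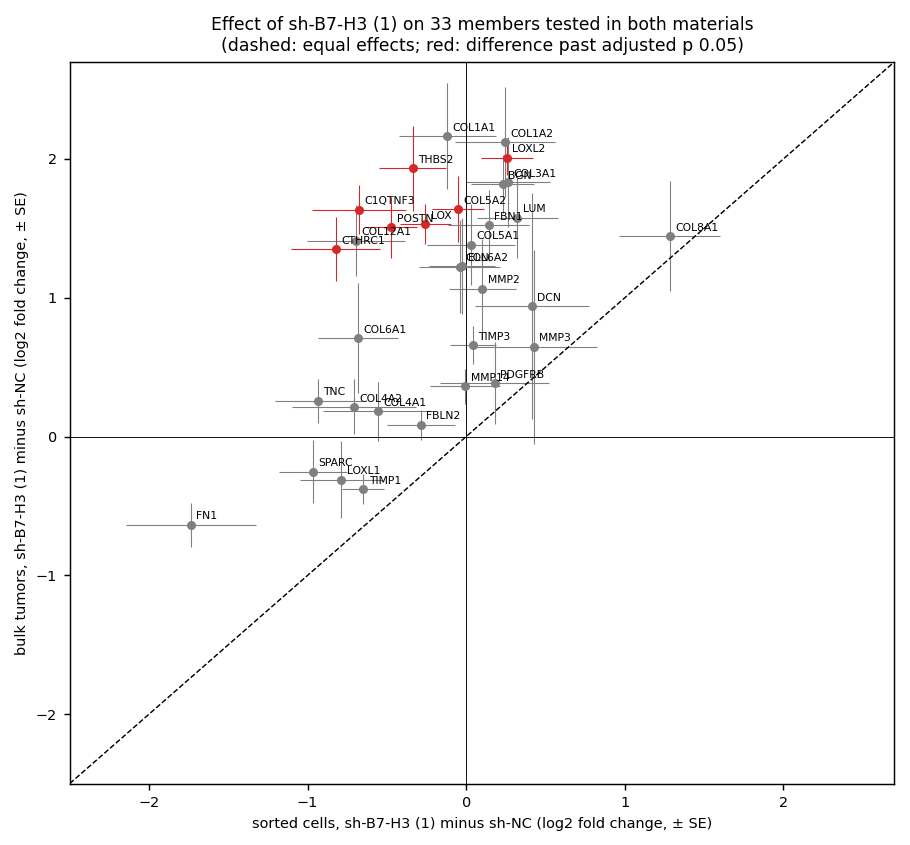
Log2 fold change (± SE) of sh-B7-H3 (1) against sh-NC in sorted cells (horizontal) and bulk tumors (vertical) for the 33 members tested in both. All 33 lie above the dashed line of equal effects, and red marks the 7 members whose difference passed the test.

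The difference between the bulk and the sorted effect of sh-B7-H3 (1) was tested as an interaction over 12 libraries. It was above 0 for 37 of 38 members, with a median of 1.15 on the log2 scale against 0.01 for all genes. Of the 38, 33 were also tested in sorted cells, and the others entered through the bulk libraries. For 7 members the difference passed the test upward, against 0.215% of 12071 genes, and for 0 downward, against 0.249%. By limma at an unadjusted p below 0.05, 26 members were positive and 1 negative, with no share of all genes taken at that threshold. The 7 were COL5A2 (1.69 ± 0.31), POSTN (1.98 ± 0.29), THBS2 (2.27 ± 0.41), CTHRC1 (2.17 ± 0.41), C1QTNF3 (2.31 ± 0.38), LOX (1.79 ± 0.22) and LOXL2 (1.75 ± 0.21). Adjusted p-values were 0.0085 for LOX and for LOXL2, 0.0181 for POSTN and 0.0327 to 0.0451 for the rest. COL1A1 differed by 2.28 ± 0.54 (adjusted p = 0.106) and BGN by 1.59 ± 0.31 (adjusted p = 0.0539), so the rise of type I collagen in bulk was not shown to differ from sorted cells at this threshold. The exception in sign was MMP13, with an adjusted p of 0.303.

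The interaction also rested on single libraries. Its count was 7 with all libraries, where 0.464% of all genes were called. It was 2 without bulk sh-NC replicate 3 (0.0999%), sorted sh-NC replicate 2 (0.125%) or sorted sh-B7-H3 (1) replicate 2 (0.125%). Without bulk sh-NC replicate 1 (0.183%) or bulk sh-B7-H3 (1) replicate 2 (0.377%) the count was 3. The count was also 3 without sorted sh-NC replicate 3 (0.166%) or sorted sh-B7-H3 (1) replicate 1 (0.166%). Without sorted sh-B7-H3 (1) replicate 3 it was 4 (0.116%). LOX and LOXL2 passed under all 19 alternatives. POSTN passed under 14, C1QTNF3 under 8, CTHRC1 under 5, THBS2 under 4 and COL5A2 under 3. LOX in sorted cells was at 2.43, 1.69 and 2.71 scaled FPKM with sh-NC and 1.55, 1.51 and 2.14 with sh-B7-H3 (1). LOXL2 was at 2.33, 2.13 and 1.74 against 2.12, 3.44 and 2.51. Neither enzyme was called in those cells, unlike in bulk tumors.

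**Figure D4:**
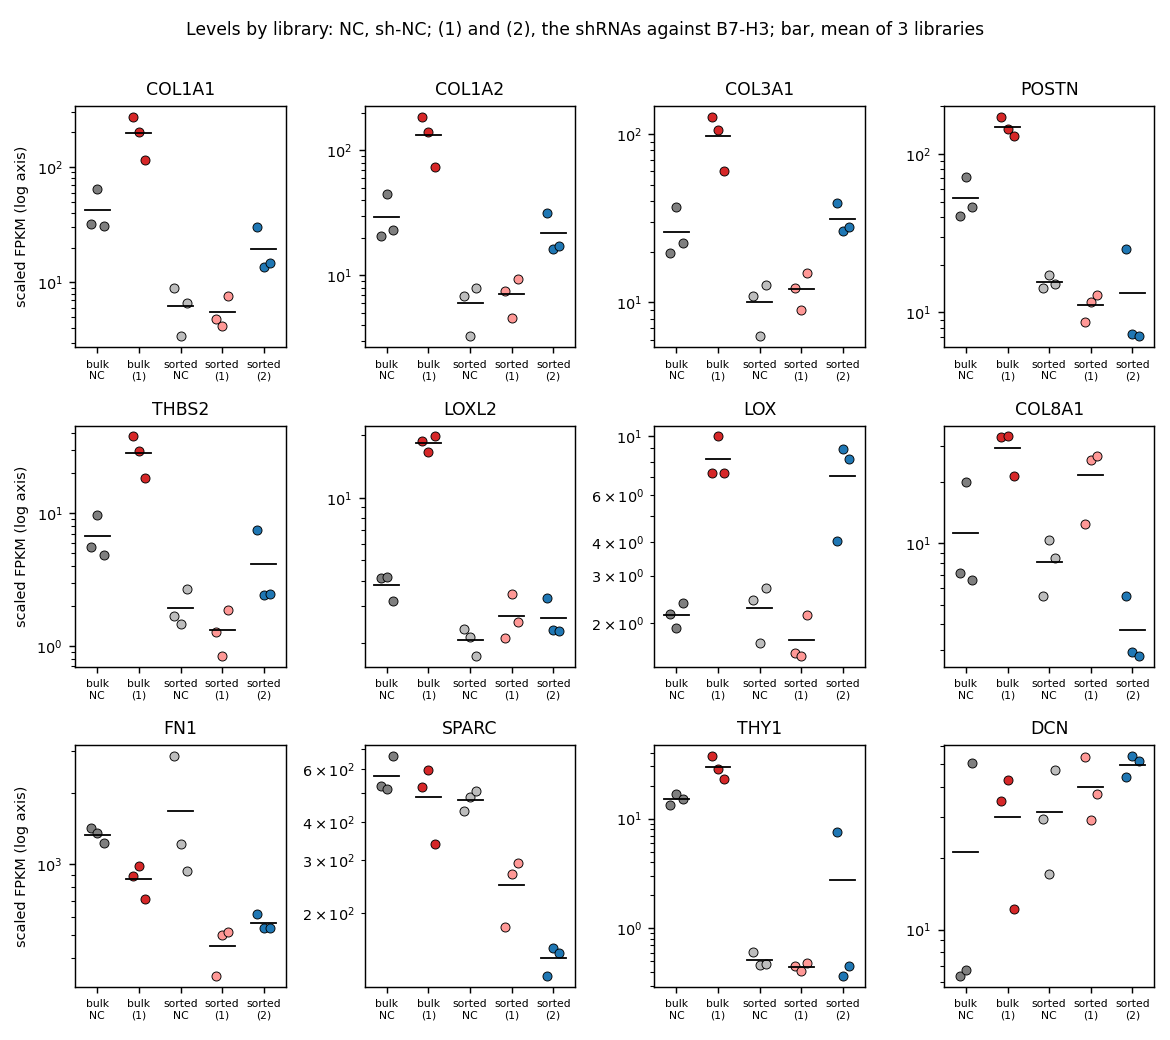
Scaled FPKM of 12 members (vertical log axes) in the 5 groups, with 1 point per library and a bar at the mean of 3. COL1A1 lay between 114 and 272 in bulk sh-B7-H3 (1) and between 31.1 and 64.4 in bulk sh-NC, whereas FN1 and SPARC were lowest in sorted cells with sh-B7-H3 (1) or (2).

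Where the RNA lay in control tumors was asked by comparing the sh-NC libraries of both materials, which also serve as controls above. Material differs here with tissue handling, and these cannot be told apart. All 8 skeletal muscle genes tested were lower in bulk than in sorted sh-NC, while all 8 endothelial and all 6 leukocyte markers tested were higher. The sums over 12 muscle genes were 4.48 to 25.3 in bulk and 70.4 to 127 in sorted sh-NC. Of 37 members 16 were higher in bulk tumors than in sorted cells, against 10.4% of all genes, and 0 were lower, against 6.48%. No member was lower by limma at an unadjusted p below 0.05 either. THY1 differed most, at 13.4 to 16.8 scaled FPKM in bulk and 0.466 to 0.612 in sorted sh-NC (3.41 ± 0.13). MMP13 was at 6.25 to 8.22 in bulk, and in sorted sh-NC it was listed at 0 in 2 libraries and at 0.0891 in the other (3.03 ± 0.13). COL1A1 differed by 2.57 ± 0.36, BGN by 2.15 ± 0.22, COL1A2 by 2.11 ± 0.35, COL6A3 by 2.05 ± 0.22 and COL5A2 by 1.84 ± 0.19 (log2). POSTN, THBS2 and COL3A1 differed by 1.65 ± 0.21, 1.36 ± 0.25 and 1.31 ± 0.29. PDGFRB, COL6A2, COL5A1, MMP2, ADAMTS2 and LOXL2 completed the 16, at 0.65 to 1.49. Of the 16, THY1, MMP13, COL6A3 and ADAMTS2 were under 1 scaled FPKM in every sorted sh-NC library. They passed the filter through the bulk libraries alone, so for them only a call upward was possible.

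Other members did not pass this test. FN1 was at 1221 to 1412 scaled FPKM in bulk sh-NC and 938 to 2848 in sorted sh-NC, and it was the member with the highest mean in all 5 groups. SPARC was at 514 to 661 against 436 to 506, TNC at 56.2 to 81.0 against 52.4 to 96.2 and FBLN2 at 116 to 139 against 78.6 to 135. LOX was at 1.91 to 2.38 against 1.69 to 2.71. DCN was at 17.2 to 54.1 scaled FPKM in the 9 sorted libraries, a range that holds bulk sh-NC replicate 3 but lies above replicates 1 and 2. The count of 16, with 16.9% of all genes called, was 4 without bulk sh-NC replicate 2 (1.28%) and 7 without bulk sh-NC replicate 1 (1.60%). It was 9 without sorted sh-NC replicate 2 (6.41%) and 7, of which 1 lower, without bulk sh-NC replicate 3 (1.78%). THY1, MMP13, COL1A1, BGN, COL5A2, COL6A3 and POSTN passed under every alternative that tested them, of which THY1, MMP13 and COL6A3 passed the filter through bulk libraries alone.

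Chains of 1 collagen can be set beside each other because FPKM is per length. COL1A1 divided by COL1A2 was 1.34 to 1.56 in all 6 bulk libraries and 0.635 to 1.30 in the 9 sorted ones, so the materials did not overlap in this ratio. COL6A1 divided by COL6A3 was 2.85 to 11.9 in bulk tumors, 27.4 to 75.4 in sorted sh-NC, 11.8 to 19.3 in sorted sh-B7-H3 (1) and 5.56 to 7.71 in sorted sh-B7-H3 (2). COL6A3 itself was under 1 scaled FPKM in all sorted libraries with sh-NC or sh-B7-H3 (1). COL4A1 divided by COL4A2, chains that share 1 network, was 1.19 to 1.55 in 12 libraries and 1.94 to 2.06 in sorted sh-B7-H3 (2). These ratios are descriptions with no test.

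Sorted cells with sh-B7-H3 (2) differed from sorted sh-NC in both directions. Of 34 members 8 were higher, against 11.7% of all genes, and 6 lower, against 7.45%. The median log2 fold change was 0.25 against 0.01 for all genes. COL1A1 was at 30.4, 13.7 and 14.6 scaled FPKM with sh-B7-H3 (2) (1.48 ± 0.37 above sh-NC, adjusted p = 0.0277), COL1A2 at 31.6, 16.4 and 17.2 (1.71 ± 0.33, adjusted p = 0.00995) and COL3A1 at 38.7, 26.5 and 27.9 (1.57 ± 0.26, adjusted p = 0.00424). Replicate 1, the library with endothelial and leukocyte markers, was the highest of the 3 for each. LOX was at 4.04, 8.89 and 8.20 (1.25 ± 0.27), with replicate 1 the lowest. BGN (1.11 ± 0.30), COL5A2 (0.88 ± 0.23), COL6A3 (0.89 ± 0.21) and MMP3 (1.24 ± 0.36) were the other members that rose. COL6A3 was under 1 scaled FPKM in every sorted sh-NC library, so it passed the filter through the sh-B7-H3 (2) libraries alone. Of the 22 members higher in bulk sh-B7-H3 (1), 7 were also higher here. They were BGN, COL1A1, COL1A2, COL3A1, COL5A2, COL6A3 and LOX, while 1, COL8A1, was lower. No share of all genes called in both comparisons was taken, so these shared calls are no result about the members as a set.

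SPARC was at 124, 154 and 148 scaled FPKM in these cells, a fall of 1.74 ± 0.16 on the log2 scale (adjusted p = 0.000232). TNC, at 19.8, 24.8 and 24.2 scaled FPKM, fell by 1.57 ± 0.22 (log2), and FN1, at 614, 537 and 538, by 1.40 ± 0.39. LOXL1 fell by 1.40 ± 0.23, COL4A2 by 1.27 ± 0.30 and COL8A1 by 0.95 ± 0.27. COL8A1 lay at 5.50, 2.92 and 2.80 scaled FPKM, and its replicate 1 overlapped the sh-NC range. Of 10 epithelial markers 6 were higher in these cells, and their part in the falls was not tested either. The sorted comparisons of both shRNAs share the sh-NC libraries, so their values are set side by side only. FN1 differed by -1.74 with sh-B7-H3 (1) and -1.40 with sh-B7-H3 (2), and SPARC by -0.97 and -1.74 (log2).

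Without replicate 1 of sh-B7-H3 (2), 5 members were higher and 6 lower, where 12.5% of all genes were called in either direction. COL1A2 (1.41 ± 0.31), COL3A1 (1.41 ± 0.27), LOX (1.56 ± 0.18), BGN (0.77 ± 0.20) and COL5A2 (0.62 ± 0.15) kept their calls upward, and COL1A1, MMP3, FN1 and COL4A2 missed the threshold, while COL6A3 was no longer tested. POSTN, at 25.1, 7.31 and 7.11 scaled FPKM, was lower by 1.01 only without replicate 1, and COL6A1 by 0.83. THY1 was at 7.50 in replicate 1 and at 0.370 and 0.453 in the others, as low as in sorted sh-NC. The count of 14, with 19.1% of all genes called, fell to 5 without sorted sh-NC replicate 2 (11.2%). It was 7 without sh-B7-H3 (2) replicate 2 (9.66%) and 6 without its replicate 3 (8.85%). COL1A2, COL3A1, SPARC, TNC and LOXL1 passed under all 12 alternatives. Replicates 2 and 3 had endothelial sums of at most 0.96. Their macrophage marker sums were 133 and 132 against 64.3 to 69.5 in sorted sh-NC, and the part of these markers was not tested.

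**Figure D5:**
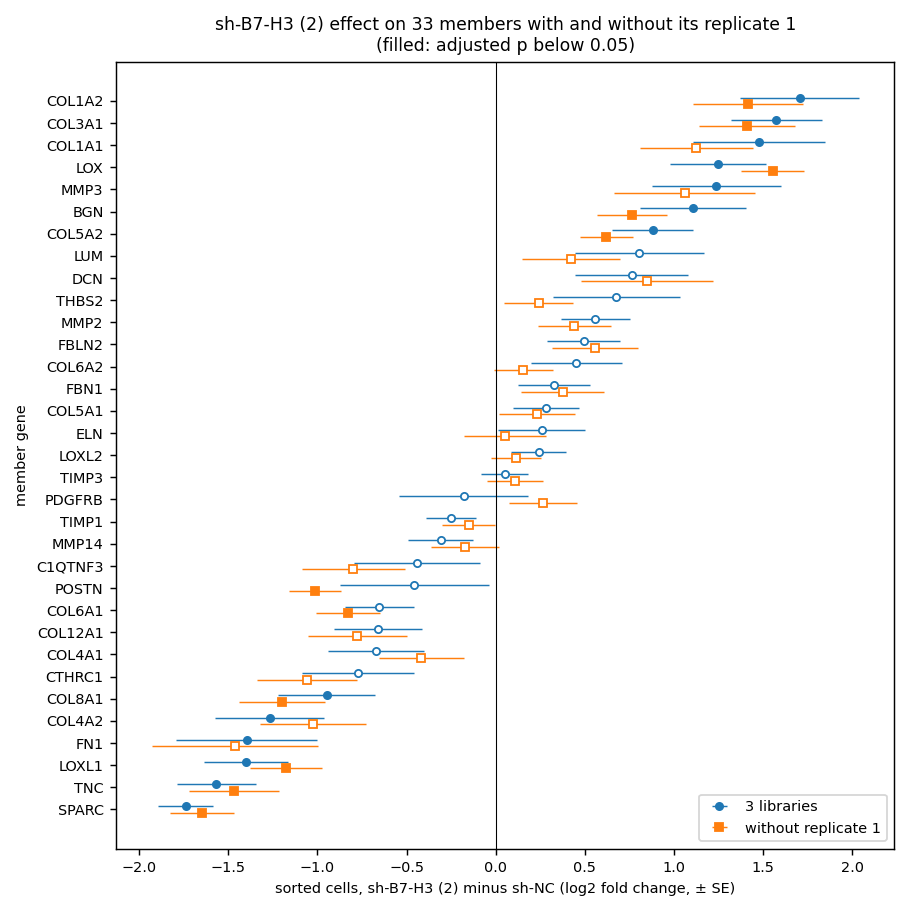
Log2 fold change (± SE) of sh-B7-H3 (2) against sh-NC in sorted cells for 33 members, with all 3 libraries (circles) and without replicate 1 (squares), filled where the adjusted p was below 0.05. COL1A2, COL3A1 and LOX stayed above 1, and SPARC, TNC and LOXL1 stayed below -1.

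The shRNAs were also compared directly in sorted cells, a comparison added after the values had been seen. With sh-B7-H3 (1), 1 of 33 members was higher than with sh-B7-H3 (2), against 1.76% of all genes, and 5 were lower, against 1.64%. COL8A1 was higher by 2.23 ± 0.32 (adjusted p = 0.0152). COL1A1 (-1.60 ± 0.31), LOX (-1.51 ± 0.25), COL1A2 (-1.46 ± 0.29), COL3A1 (-1.31 ± 0.20) and FBLN2 (-0.78 ± 0.12) were lower. SPARC differed by 0.77 ± 0.19 (adjusted p = 0.0709) and FN1 by -0.34 ± 0.18 (adjusted p = 0.311). These values come from a fit without pairing. Pairing by replicate number was read from these same data, and the labels do not give it. With the number as a block 4 members were higher and 7 lower. In that fit 16.6% of all genes were called in either direction, against 3.40% without the block. All 6 calls held with the block, SPARC, TNC and LOXL1 were also higher (adjusted p = 0.0193, 0.0277 and 0.0196), and MMP3 and TIMP1 also lower (adjusted p = 0.0253 and 0.0219). Without sh-B7-H3 (2) replicate 1 the count was 7, where 8.02% of all genes were called. It was 0 without sh-B7-H3 (1) replicate 2 (0.744%) or sh-B7-H3 (2) replicate 3 (0.315%). By limma at an unadjusted p below 0.05 these gave 2 higher and 9 lower, and 4 higher and 9 lower. The count was 1 without sh-B7-H3 (1) replicate 3 (0.493%) or sh-B7-H3 (2) replicate 2 (0.613%), and no call held under all alternatives.

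Genes of the same pathway outside the list are set here beside all genes tested in bulk tumors, of which 12.8% were higher and 8.51% lower. Of 30 other matrix glycoproteins and proteoglycans tested 12 were higher and 3 lower, led by ASPN, asporin (2.02 ± 0.17), MFAP4, a microfibril protein (2.00 ± 0.35) and LTBP2, which binds fibrillin (1.84 ± 0.28). Of 18 genes of collagen assembly and cross-linking 5 were higher and 3 lower, with a median of -0.25, among them LOXL3 (1.09 ± 0.24), LOXL4 (-1.06 ± 0.24) and PCOLCE2 (-0.95 ± 0.14). Of 9 other collagens tested 2 were higher, COL4A3 (1.29 ± 0.24) and COL7A1 (1.11 ± 0.30). Of 10 basement membrane genes 3 were higher, with LAMA3, a laminin chain, at 2.81 ± 0.25. Of 16 matrix receptors 6 were higher, led by the integrins ITGB6 (1.70 ± 0.22), ITGA2 (1.48 ± 0.16) and ITGB4 (1.27 ± 0.16). Of 22 other proteases and inhibitors 5 were higher, such as ADAM12 (1.60 ± 0.24), and 6 lower, such as MMP12 (-1.55 ± 0.32). Of 12 PDGF and TGF-beta ligands and receptors 3 were higher, INHBA at 0.81 ± 0.16 and PDGFA at 0.75 ± 0.09 among them, and 2 were lower, with CTGF at -0.57 ± 0.15.

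In sorted cells with sh-B7-H3 (1), 1 of 16 assembly genes was higher and 4 were lower, 3 of 23 other glycoproteins and proteoglycans were higher and 5 lower, and 3 of 16 receptors were higher, against 9.03% of all genes higher and 4.37% lower. LAMA3 and ITGB6 were higher there too, by 2.54 ± 0.28 and 2.36 ± 0.18. In the interaction test, where 0.215% of all genes were above and 0.249% below, 2 of 31 other glycoproteins and proteoglycans passed, ASPN (1.95 ± 0.33) and SPON1, a spondin (1.60 ± 0.28). P4HA3, a subunit of collagen prolyl hydroxylase, was 1 of 18 assembly genes (0.86 ± 0.16), and ADAMTS12, a metalloproteinase, 1 of 22 proteases and inhibitors (1.11 ± 0.20). SPON1, P4HA3 and ADAMTS12 were under the filter in the sorted comparison and entered this test through the bulk libraries. Their bulk rises were 1.56, 0.85 and 1.13 (log2), so their differences are no separate support beyond those rises.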

How the data were processed

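RNA sequencing of 6 bulk tumors and 9 sorted-cell samples was deposited by the authors as 1 table of FPKM per gene and library, although it is named for counts. The genome build was mm10 per the submitters' processing notes, and the counter is not given in the sources used here. The methods name a KAPA kit and the labels an Illumina stranded kit. From 24917 entries, 26 whose symbols had become dates were left out. Median-ratio factors came from the 9872 genes that reached 1 FPKM in all libraries, since MIR6236 held 6.01% to 79.7% of the summed FPKM. Scaled values plus 1 were taken to log2 and compared with limma 3.58.1 (R 4.3.3, mean-variance trend) with Benjamini-Hochberg adjustment, after a filter of 1 scaled FPKM in 3 libraries. The script was tested on simulated data. Same-numbered libraries of sorted sh-B7-H3 (1) and (2) deviated together from their group means in all 3 pairs (r from 0.208 to 0.229 over 12202 genes, which are not independent). The numbers were therefore read as a possible pairing of these libraries, from the data and not from the labels. The main fit of this comparison took no pairing, and the fit with a replicate block was an alternative. Libraries with unlike numbers were not correlated, so the pairing is an assumption. Depth in reads was estimated from the spacing of low FPKM values and annotated lengths, so it is approximate. A smaller deposited table of log2 values was not used. Every member is named, and other genes are named as entries of their lists by size of change. Sequences were from RefSeq tables of GRCm38.p6. Members and lists were chosen with earlier results of these data known. Alternatives left FPKM as deposited, used a pseudocount of 0.1, no filter, a replicate block, 1 fit of all groups, an absolute log2 fold change above 1, or left out libraries. The last included the pair rich in MIR6236, which was chosen after seeing the data. Python 3.11.15, numpy 2.4.6 and pandas 2.3.3 were used.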

Additional observations from a re-analysis of the deposited data

Results flagged for a closer look

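The effect of sh-B7-H3 (1) differed between bulk tumors and sorted cells by the interaction test for 7 members. On the log2 scale the bulk effect exceeded the sorted effect by 1.69 for COL5A2, 1.98 for POSTN, 2.27 for THBS2, 2.17 for CTHRC1, 2.31 for C1QTNF3, 1.79 for LOX and 1.75 for LOXL2. LOX and LOXL2, the cross-linking enzymes, held under every alternative, and the others did not. This contrast covered sh-B7-H3 (1) only, and LOX and COL5A2 were also called higher in sorted cells with sh-B7-H3 (2). COL11A1 moved in opposite directions in both materials with no overlap of libraries. It rose in bulk tumors and was lower in sorted cells, at 0 to 0.00984 against 0.0337 to 0.0614 scaled FPKM. It lay under the filter, with sorted values near 0, so this difference was outside the main test. Without the filter it came to 0.62. COL11A1 was found by searching the members for this pattern, and no share of all genes showing it was taken.

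In sorted cells, the shRNAs differed by the direct test without pairing for 6 members. On the log2 scale, sh-B7-H3 (1) minus sh-B7-H3 (2) was -1.60 for COL1A1, -1.46 for COL1A2, -1.31 for COL3A1, 2.23 for COL8A1, -0.78 for FBLN2 and -1.51 for LOX. Cd276 also differed between these groups, at 7.32 to 14.0 against 23.4 to 25.8 scaled FPKM. The part of Cd276 in these differences was not tested.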

How the results depend on the processing

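No fold change of a called member changed sign under any alternative. Percentages here are the shares of all genes called. Members called in sorted sh-B7-H3 (1) cells numbered 4 (13.4%), and 2 without the filter (9.86%) or with an absolute log2 fold change above 1 (6.41%). In sorted sh-B7-H3 (2) cells they numbered 14 (19.1%), and 5 without the filter (12.3%). The interaction gave 7 (0.464%), 3 with a pseudocount of 0.1 (0.207%) and 3 without the filter (0.429%). It gave 2 with all 5 groups in 1 fit (0.298%) or without the MIR6236-rich libraries (0.101%). The bulk against sorted comparison of sh-NC gave 16 (16.9%), and 7 without those libraries (1.78%). The comparison of the shRNAs gave 6 (3.40%), and 0 without the filter (0.761%). There 3 members were higher and 13 lower by limma at an unadjusted p below 0.05. Leaving out each library in turn gave 9 to 26 calls in bulk tumors, 0 to 5 in sorted sh-B7-H3 (1), 5 to 18 in sorted sh-B7-H3 (2), 2 to 10 for the interaction, 4 to 21 for sh-NC by material and 0 to 7 between the shRNAs. The share of all genes called also moved, from 4.74% to 33.0% in bulk tumors, 6.66% to 17.6% in sorted sh-B7-H3 (1) and 8.85% to 32.4% in sorted sh-B7-H3 (2). It ran from 0.0999% to 0.601% for the interaction, 1.28% to 39.2% for sh-NC by material and 0.315% to 8.02% between the shRNAs. Where a group held 2 libraries, its spread was pooled with the other.

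No main fit paired the samples by replicate number. Apart from the comparison of the shRNAs, deviations of same-numbered libraries correlated with r from -0.463 to 0.381. With the number as a replicate block the count was 22 in bulk, where 11.97% of all genes were called. It was 3 in sorted sh-B7-H3 (1) (8.19%) and 10 in sorted sh-B7-H3 (2) (12.4%). The interaction gave 5 (0.199%) and sh-NC by material 16 (17.5%). The comparison of the shRNAs gave 11 (16.6%), and the share of all genes called was also higher there than without the block.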
